A study of Mus musculus with 4 samples.

Results

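The 10 genes described here mark or direct the myeloid and mast cell lineages. They are Cpa3, Hdc and Mpo, which encode granule proteins and mediator enzymes, Itgam, Fcer1g and Csf2rb, which encode surface receptors, and the transcription factor genes Gata2, Spi1, Cebpa and Cebpb. They were taken by symbol from the 24391 genes of the count table, and all 10 were found. Cpa3 was chosen by its fall upon washout in these same libraries, so its values are given as a description without a test. The other 9 genes were chosen for their known roles, although with earlier results of these data known.

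RNA-Seq was performed in Beko cells, mouse leukemic T-cell progenitors grown as a line in which Notch signaling is constitutively active, and 2 conditions with 2 libraries each were compared. In the GSI condition, cells were kept for 48 h in the γ-secretase inhibitor DAPT, which blocks the cleavage that releases the active Notch intracellular domain. In the washout condition, cells had the same 48 h of inhibitor, which was then removed, and were cultured for another 24 h, so that release from the inhibitor and longer culture cannot be told apart. The labels give the dose as 10 mg/ml and the study's methods as 10 μg/ml, all libraries come from 1 cell line, and the labels do not say whether replicates were separate cultures, so p-values measure only the spread between these libraries.

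In the thymus, Notch signaling holds early progenitors on the T lineage. Progenitors that lose the Notch signal can still take up myeloid, dendritic cell or mast cell fates, which are directed by factors such as PU.1, C/EBPα and GATA2. Mast cells store proteases and histamine in granules and signal through the Fcε receptor and the KIT receptor, whereas neutrophils carry myeloperoxidase in theirs. RBPJ is the DNA-binding factor through which the Notch intracellular domain acts.

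The counted reads per library were between 13716199 and 36364200, and replicate 1 was the deeper library in both conditions. Across the tested genes, log2 CPM had a correlation of 0.990 for the GSI pair and 0.988 for the washout pair. CPM values are read counts scaled to the library total with TMM factors. All 18 T lineage genes examined as a check of the label passed the filter on low counts, and their summed level was between 7323 and 8262 CPM in the 4 libraries. Ptcra, the pre-T cell receptor α chain, rose upon washout (log2 fold change 2.37, adjusted p = 0.000281), while Cd5 (fold change of -1.90 on the log2 scale, adjusted p = 0.00107), Gata3 (-1.67, adjusted p = 0.000438) and Cd28 (-1.47, adjusted p = 0.000315) fell. Of the 18, 1 rose and 4 fell past the thresholds given below, beside 7.74% higher and 11.7% lower over all tested genes.

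Only Cpa3 and Itgam of the 10 genes had more than 3 CPM in any library, and both were lower upon washout. The starts of these genes are therefore shown. Both are the RefSeq promoter windows of 300 bases, from 250 bases before to 50 bases after the start site, printed 5′ to 3′ on the gene's own strand. Each was found once on its mm9 chromosome, Cpa3 at chr3:20142031-20142330 on the minus strand and Itgam at chr7:135205904-135206203 on the plus strand. Capitals mark every match, on either strand, to short forms of 5 motifs. For RBPJ these are TGGGAA and, in its second form, TGAGAA. For GATA factors they are AGATAA and, in its second form, TGATAA. PU.1 was searched as GAGGAA, C/EBP as TTGCNNAA and the E-box as CANNTG.
Cpa3: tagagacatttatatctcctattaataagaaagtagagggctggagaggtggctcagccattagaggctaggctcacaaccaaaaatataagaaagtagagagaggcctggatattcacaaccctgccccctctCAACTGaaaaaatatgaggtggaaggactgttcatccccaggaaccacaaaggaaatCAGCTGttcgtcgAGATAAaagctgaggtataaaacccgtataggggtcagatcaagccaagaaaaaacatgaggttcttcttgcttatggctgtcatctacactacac
Itgam: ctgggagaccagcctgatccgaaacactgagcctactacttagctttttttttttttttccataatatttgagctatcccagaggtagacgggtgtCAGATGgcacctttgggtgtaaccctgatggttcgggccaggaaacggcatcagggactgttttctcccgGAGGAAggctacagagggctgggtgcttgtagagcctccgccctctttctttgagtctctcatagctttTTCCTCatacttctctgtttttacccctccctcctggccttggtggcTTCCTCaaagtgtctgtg
The Cpa3 window holds the GATA letters AGATAA, beginning 46 bases before the start, and E-boxes beginning 116 and 59 bases before it. The Itgam window holds 3 PU.1 matches, beginning 84 and 15 bases before the start and 33 bases into the transcript, and an E-box beginning 154 bases before it. Neither window holds the RBPJ or the C/EBP letters. Of the 32851 RefSeq promoter windows searched, 18.6% hold the GATA letters, 28.3% the PU.1, 40.4% the RBPJ, 10.8% the C/EBP and 72.3% the E-box letters, so that matches of this kind are frequent. These matches are letters in a window, and binding was not measured in these libraries. The study measured RBPJ binding in Beko cells by ChIP-Seq, which was not examined here for these genes. It found the sites with reduced binding upon GSI mostly away from transcription start sites, outside windows of this kind.

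Cpa3 encodes carboxypeptidase A3, a protease of mast cell granules that is also transcribed in early hematopoietic progenitors. The gene lies at chr3:20115516-20142080 (mm9, minus strand) and has 11 exons in its longest transcript. It was counted 5621 and 1129 times in GSI replicates 1 and 2, and 318 and 30 times in washout replicates 1 and 2. These counts correspond to 175.6 and 77.4 CPM in GSI and to 9.34 and 2.23 CPM in washout. Both washout libraries lay far below both GSI libraries, and within each condition replicate 1 was the higher. The log2 fold change of the fit was -4.30 (SE 0.615). The mean CPM, a separate measure, was 21.9-fold lower after washout. Per kilobase of exon, the mean level went from 87.1 to 3.98 CPM, that is, from the 95.03 percentile of 10962 tested genes with a known length to the 30.5 percentile, while the median gene was at 9.85 and 9.77 CPM per kilobase. In bulk RNA, fewer cells of a type and less RNA per cell cannot be told apart.

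This fall had the largest SE of the 3 genes of the group that passed the filter on low counts. GSI replicate 1 was 2.27 times GSI replicate 2, and washout replicate 1 was 4.19 times washout replicate 2. Ratios this large between replicates were found for 1.92% and 0.889% of the tested genes, whose medians were 1.11 and 1.13. The 4 pairs of a GSI and a washout library gave folds between 8.28 and 78.7. Without GSI replicate 1 the log2 fold change of Cpa3 was -3.62, without GSI replicate 2 it was -4.77, without washout replicate 1 -5.83 and without washout replicate 2 -3.75. Depth moved with these differences, since replicate 1 was also the deeper library, and its part was not tested. When all libraries were thinned to the smallest one, the log2 fold change was -4.44.

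**Figure D1:**
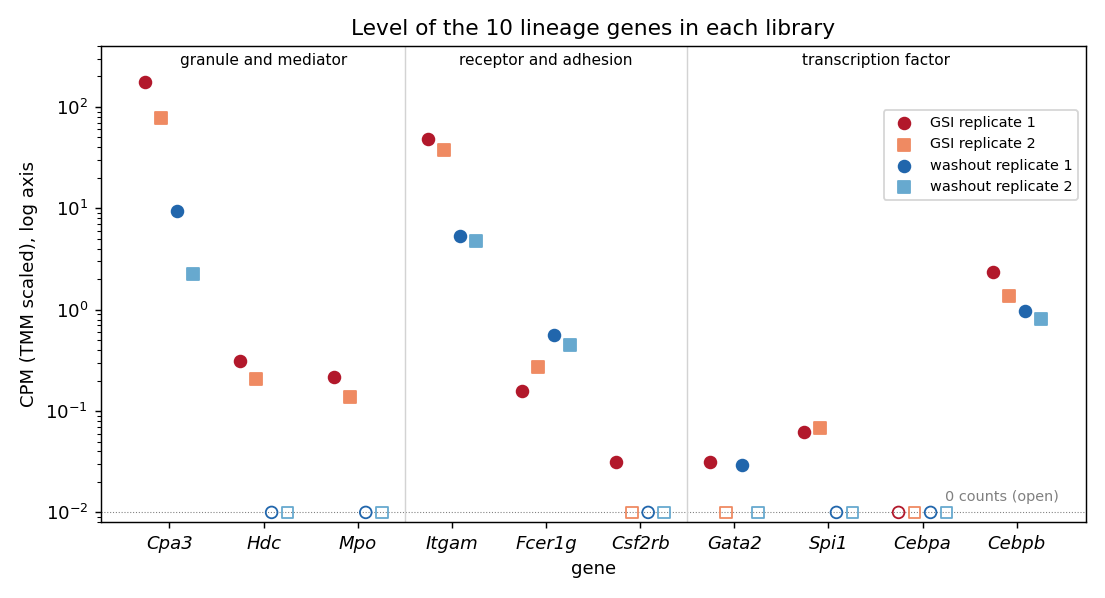
Level of each of the 10 genes in the 4 libraries, as TMM-scaled CPM on a log axis, grouped by role; open symbols on the dotted line mark libraries with 0 counts. Cpa3 runs from 175.6 CPM in GSI replicate 1 to 2.23 CPM in washout replicate 2, Itgam lies between 37.9 and 48.7 CPM in GSI and near 5 CPM in washout, and 7 genes stay under 1 CPM in every library.

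Itgam encodes integrin αM (CD11b), which pairs with integrin β2 on neutrophils, macrophages and natural killer cells. It lies at chr7:135206154-135271674 (mm9, plus strand) and has 30 exons in its longest transcript. It was counted 1559 and 553 times in GSI and 183 and 64 times in washout, or 48.7 and 37.9 CPM against 5.37 and 4.76 CPM. The replicates lay close together, and both washout libraries were well below both GSI libraries. Itgam fell upon washout by 3.08 on the log2 scale (SE 0.177, adjusted p = 0.000297 by the quasi-likelihood test of edgeR and Benjamini-Hochberg), from 43.3 ± 7.65 to 5.07 ± 0.434 CPM (mean ± SD, n = 2 each), an 8.54-fold lower mean. The 4 pairs of libraries gave folds between 7.05 and 10.2. In all 17 alternative settings Itgam stayed past both thresholds, with log2 fold changes between -3.28 and -2.89. Per kilobase of exon its mean level went from 6.79 to 0.795 CPM, from the 39.7 to the 13.9 percentile.

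A gene was called when its adjusted p was under 0.05 and its log2 fold change was also beyond 1 in either direction, the thresholds of the study. Of the 9 genes other than Cpa3, 2 passed the filter on low counts, of which Itgam was lower past both thresholds and Cebpb was not past them. Over all 12266 tested genes, 11.7% were lower, 7.74% were higher and 19.5% were called in either direction, and 52.5% passed the adjusted p alone. Cpa3, chosen for its fall, is left out of this count of members.

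The β2 partner of Itgam had a higher level per kilobase. Itgb2 had 191.4 and 188.1 CPM in the GSI libraries, against 108.7 and 123.8 CPM after washout. Its log2 fold change of -0.71 (SE 0.103, adjusted p = 0.00225) did not reach the fold threshold, although both washout libraries were below both GSI libraries. Per kilobase of exon, Itgb2 went from 62.2 to 38.1 CPM. The difference in response between Itgam and Itgb2 was not tested.

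Fcer1g encodes the γ chain shared by the IgE and several IgG Fc receptors, which passes their signal on through its ITAM. The gene lies at chr1:173159703-173164496 (mm9, minus strand). It was counted 5 and 4 times in GSI and 19 and 6 times in washout (0.156 and 0.274 against 0.558 and 0.446 CPM). It was the only gene of the 10 with both washout libraries above both GSI libraries, an arrangement found for 38.2% of the tested genes. It was under the filter on low counts and so is not itself among those tested genes. Over the summed libraries, the level in washout was 2.73 times that in GSI, with an exact 95% interval from 1.23 to 6.64 that covers counting error only. Without the filter, its log2 fold change was 1.39 and the adjusted p was 0.158 in edgeR, and in DESeq2 1.29 and 0.431, so that a difference beyond the spread between libraries was not detectable at this depth.

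Csf2rb encodes the common β chain of the GM-CSF, IL-3 and IL-5 receptors. It lies at chr15:78156420-78184277 (mm9, plus strand). It had 1 and 0 counts in GSI and 0 in both washout libraries, and its near-identical neighbor Csf2rb2 had 0 and 1 in GSI and 2 and 0 in washout. Reads could have been split between these copies, and even their sum was at most 2 counts in any library. No comparison is possible at these counts.

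Hdc encodes histidine decarboxylase, the enzyme that makes histamine, and lies at chr2:126419403-126445035 (mm9, minus strand). It was counted 10 and 3 times in GSI and not at all in washout. A limit of 3 counts over both washout libraries corresponds to 0.0632 CPM, and the level of 0.279 CPM over both GSI libraries was 4.42 times that limit. The exact 95% interval of the ratio of GSI to washout, which covers counting error only, begins at 3.11. Mpo, which encodes myeloperoxidase of neutrophil granules at chr11:87607083-87617915 (plus strand), was counted 7 and 2 times in GSI and not at all in washout. Its level in GSI was 3.06 times the same limit, and the exact 95% interval of its ratio, again for counting error only, begins at 2.01. For both genes the GSI libraries were above 0 and the washout libraries at 0, but at a handful of reads. Mpo shares 512 bases of exon with Gm11505 on the other strand, and since the strand setting of the counting is not stated, its reads cannot be assigned with certainty.

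Hdc and Mpo were under the filter and have no test in the comparison as designed. With every gene of at least 1 count in the fit, the adjusted p-values were 0.0120 for Hdc and 0.0479 for Mpo. In that fit the estimated prior degrees of freedom were infinite, against 4.25 with the filter, so that each gene was given the spread of the trend in place of its own. DESeq2 gave unadjusted p-values of 0.0504 for Hdc and 0.127 for Mpo and no adjusted p for either.

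Of the 4 transcription factor genes, only Cebpb was measured above a few reads. C/EBPβ acts in macrophages and granulocytes and in the response to cytokines. Cebpb, a gene of 1 exon at chr2:167514415-167515918 (mm9, plus strand), was counted 76 and 20 times in GSI and 33 and 11 times in washout (2.37 and 1.37 against 0.969 and 0.818 CPM). Both washout libraries were below both GSI libraries, and GSI replicate 1 stood above the other 3 libraries. The log2 fold change was -1.08 (SE 0.391), and the adjusted p of 0.0577 missed the threshold.

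The call for Cebpb turned with the processing. It passed both thresholds in 6 of 17 alternative settings, and its log2 fold change ranged from -1.37 without GSI replicate 2 (adjusted p = 0.0489) to -0.59 without GSI replicate 1 (adjusted p = 0.4218), with adjusted p-values between 0.00419 and 1 over all 17. Cebpb shares 312 bases of exon with Tmem189 on the other strand, and the part of that gene's reads was not tested.

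**Figure D2:**
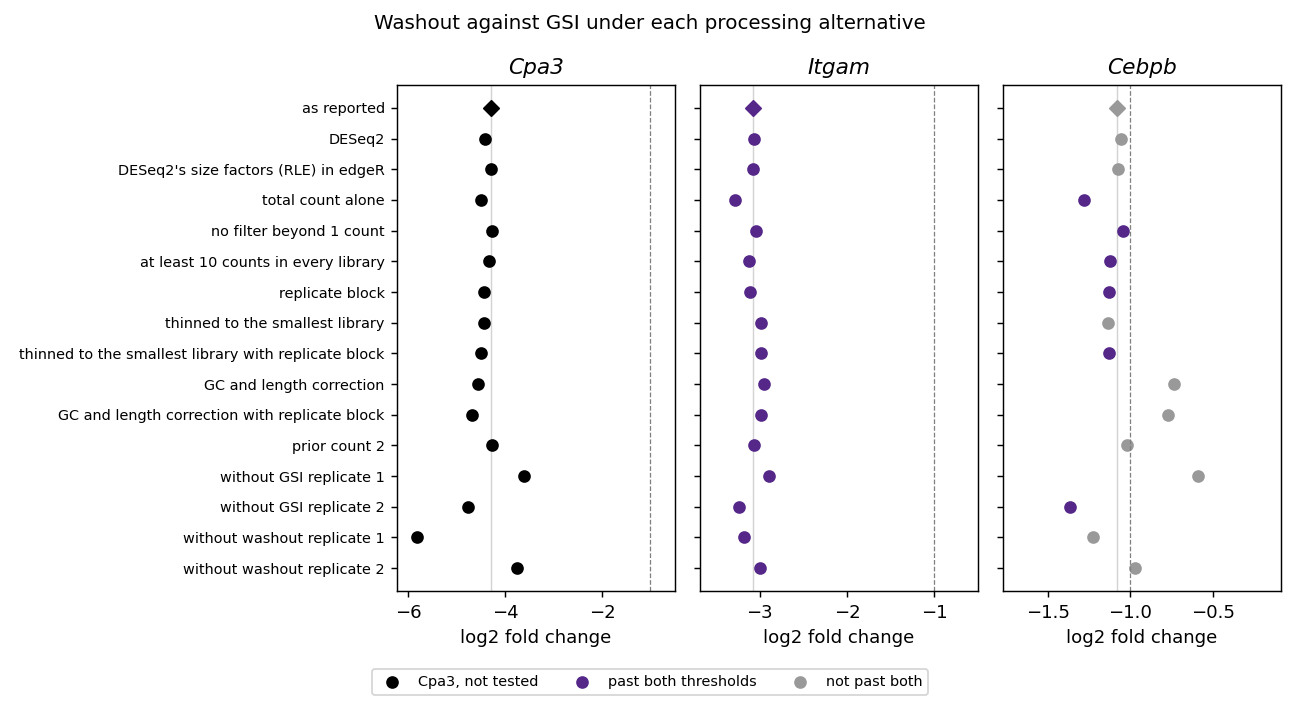
Log2 fold change of washout against GSI for Cpa3, Itgam and Cebpb (separate scales) as reported (diamond) and in each alternative that changes the estimate (circles); the dashed line is the threshold of -1 and the grey line the reported value. Itgam stays between -3.28 and -2.89, Cpa3 spreads from -5.83 to -3.62, and Cebpb lies on both sides of the threshold.

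The other transcription factor genes were at the limit of detection. Spi1, which encodes PU.1, a factor needed for myeloid and B cell development, lies at chr2:90922547-90955913 (mm9, plus strand) and had 2 and 1 counts in GSI and 0 in both washout libraries. Gata2, a factor of stem cells and mast cells at chr6:88143885-88157024 (plus strand), had 1 and 0 counts in both conditions. Cebpa, which encodes the granulocyte factor C/EBPα at chr7:35904312-35906945 (plus strand), had 0 counts in all 4 libraries. A sum of 3 counts over both libraries of a condition correspond to 0.0644 CPM in GSI and 0.0632 CPM in washout, so levels up to these cannot be told from 0 here.

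In all, 6 of the 10 genes had both washout libraries below both GSI libraries (Cpa3, Hdc, Spi1, Cebpb, Itgam and Mpo), 1 had both above and 3 overlapped. Among the tested genes, 39.1% had both washout libraries below. Only 3 of the 10 genes were tested, so this share was not taken over genes as low as Hdc, Spi1 and Mpo. Cpa3 was chosen for this arrangement, and for Hdc, Spi1 and Mpo it rests on counts of 0 in washout.

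A low count says only that few reads were counted. Cd63, a tetraspanin that nearly every cell type uses, was counted 1 time in each replicate 1 and not in the others. Reads were aligned by the authors with a maximum intron of 3000 bases, and of the introns annotated over all transcripts, 2 of 10 of Cpa3, 7 of 30 of Itgam and 3 of 6 of Spi1 are longer. The same setting was used for all 4 libraries, and its part in the counts was not tested.

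The remaining genes of the mast cell program were examined as a list of 26 mast cell and basophil genes. Of these, 13 had 0 counts in all 4 libraries, and 19 had 3 counts or fewer in each. Over the whole table, 7342 of 24391 genes had 0 counts in all 4 libraries and 10356 had 3 or fewer in each. These shares are to be read beside the low counts of every list here. The defining mast cell genes Ms4a2 and Fcer1a (the other chains of the IgE receptor), the chymase Cma1 and the tryptases Tpsab1 and Tpsb2 were all at 0. Of the 6 genes tested, 3 fell and none rose, beside 11.7% lower and 7.74% higher over all tested genes, and the median log2 fold change was -0.85 beside -0.01. The 3 were Srgn (-1.84, adjusted p = 0.00281), which encodes the granule proteoglycan serglycin, Kit (-1.53, adjusted p = 0.000568), the stem cell factor receptor, and Gata1 (-1.26, adjusted p = 0.00326), a factor of erythroid cells, megakaryocytes and mast cells.

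Each of the 3 is also used outside mast cells, in lymphocytes or in progenitors. Kit had 98.8 and 89.3 CPM in the GSI libraries, against 36.3 and 28.3 CPM after washout. Srgn had 153.2 and 107.5 CPM in the GSI libraries, against 45.9 and 26.3 CPM after washout. Both genes were clearly separated between the conditions, and Gata1 was as well, with 10.6 and 9.11 against 4.35 and 3.87 CPM. The summed level of the list was 324.7 and 269.1 CPM in GSI and 125.6 and 114.8 CPM in washout. Most of the GSI sum came from Kit and Srgn, and the 3 other tested genes of the list did not pass both thresholds.

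Granule genes of neutrophils and eosinophils, the surroundings of Mpo, were not detected. All 14 genes of this list had 3 counts or fewer in every library and 9 had none at all. Their summed level lay between 0.0685 and 0.188 CPM, without separation of the conditions, and none could be tested.

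Among 24 myeloid receptors and surface proteins, 15 had 3 counts or fewer in every library and 5 were tested, with a median log2 fold change of -0.09. Of the 5, 1 was higher and 1 was lower, beside 7.74% higher and 11.7% lower over all tested genes. Il5ra, the IL-5-binding chain that pairs with the Csf2rb product, was counted 22 and 10 times in GSI and 59 and 25 times in washout (log2 fold change 1.37, adjusted p = 0.0147). Tyrobp, an ITAM adaptor like Fcer1g, was counted 14 and 12 times in GSI and 4 and 2 times in washout (log2 fold change -2.16, adjusted p = 0.0270). Tyrobp reached the filter on low counts only in its GSI libraries, so its entry into the test favored a fall. Il5ra passed both thresholds as higher and Tyrobp as lower, but DESeq2 gave adjusted p-values of 0.0822 and 0.151, and the calls held in 0 and 1 of 4 fits that left out a library.

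Of 17 genes that signal below Csf2rb and Fcer1g, 9 were tested, 2 fell and none rose (median log2 fold change -0.07), beside 11.7% lower and 7.74% higher over all tested genes. Jak2, the kinase bound to the common β chain, fell by 1.43 on the log2 scale (adjusted p = 0.000607), from 157.4 and 129.3 CPM to 57.3 and 48.7 CPM. Inpp5d, the lipid phosphatase SHIP1, fell by 1.64 (adjusted p = 0.000343), from 68.0 and 71.0 CPM to 20.7 and 24.2 CPM. Both calls held in all 4 fits that left out a library. Syk and Lyn, kinases that act directly on the Fcε receptor, were nearly absent. In GSI 1, GSI 2, washout 1 and washout 2, Syk had 2, 3, 0 and 2 counts and Lyn 1, 0, 0 and 0. Fgr, another kinase of the list, had 933, 488, 909 and 411 counts in the same order.

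More of the 22 myeloid and stem cell transcription factors were expressed, and 13 were tested (median log2 fold change -0.35). Of the 13, 1 was higher and 3 were lower past both thresholds, beside 7.74% higher and 11.7% lower over all tested genes. Gfi1b, a repressor of erythroid and megakaryocytic cells, rose by 2.13 on the log2 scale (adjusted p = 0.00153), from 1.84 and 1.85 CPM to 9.49 and 6.55 CPM. Maf, a bZIP factor of macrophages that T cells also express, fell by 3.19 (adjusted p = 0.000678), from 124.0 and 84.3 CPM to 14.4 and 7.51 CPM. Both calls held in each fit that left out a library and in DESeq2. Lyl1 also fell (-1.35, adjusted p = 0.0265), but it kept its call in 0 of 4 such fits and not in DESeq2 (adjusted p = 0.149). Cebpd, a relative of Cebpb, had counts of 21 and 8 in GSI and 68 and 10 in washout (log2 fold change 1.25, adjusted p = 0.0878). It was past both thresholds with the replicate block (1.31, adjusted p = 0.00465), with the block and the GC and length correction, without the filter, and without washout replicate 2 (1.71, adjusted p = 0.0183). Without washout replicate 1 its log2 fold change was 0.28 (adjusted p = 0.785).

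**Figure D3:**
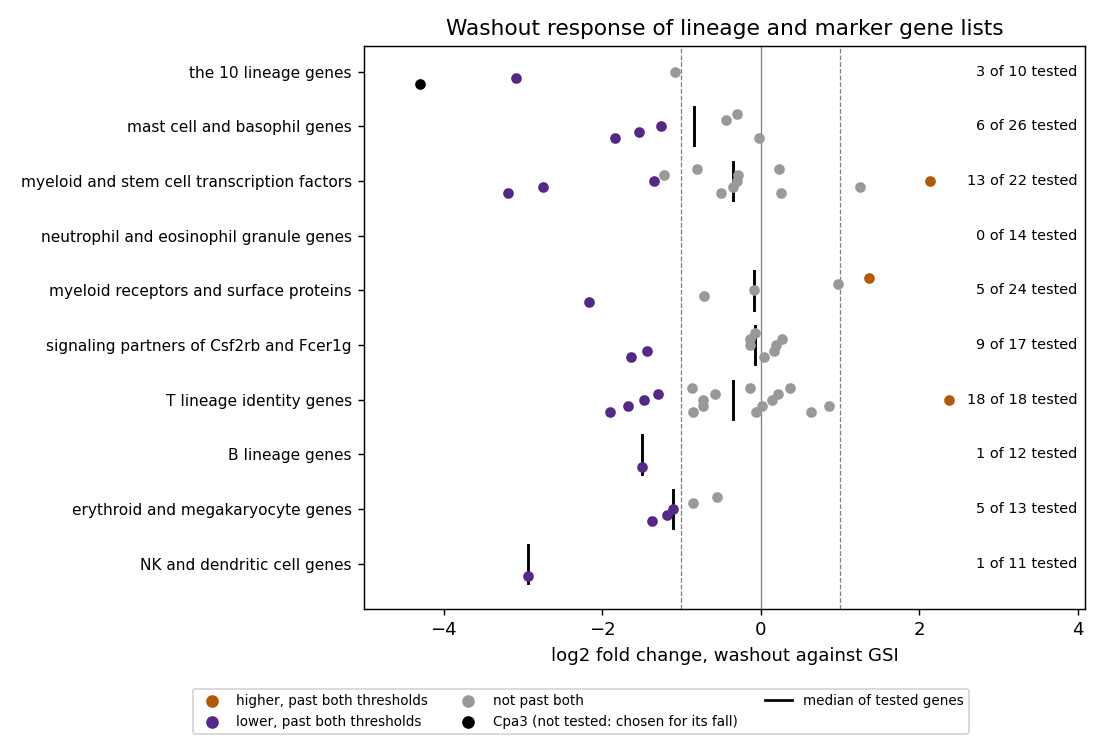
Log2 fold change of washout against GSI for each tested gene of the 10 lineage genes and of the marker lists; colors give the call, Cpa3 is black, dashed lines mark -1 and 1, and short vertical lines are medians. Mast cell genes past the thresholds are all lower, the neutrophil and eosinophil granule list has no tested gene, and the transcription factors run from -3.19 for Maf to 2.13 for Gfi1b.

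Genes whose profile over the 4 libraries was most like that of Cpa3 were sought among the 9286 genes whose average log2 CPM was 3 or more, by the Euclidean distance between log2 CPM values after each gene's own mean was subtracted. The nearest were Cilp (distance 1.10), 2900026A02Rik (1.37), Gimap8 (1.52), Etv5 (1.57) and Ccr9 (1.61). Cilp had 112.9 and 24.9 CPM in the GSI libraries, against 2.09 and 0.595 CPM after washout, Etv5 102.6 and 62.1 against 9.10 and 5.73 CPM, and Ccr9, a chemokine receptor of thymocytes, 279.6 and 247.2 against 30.3 and 17.8 CPM. All of these were higher in GSI and lower in washout, as their choice requires. Replicate 1 was the higher in GSI for each of the 5, which the choice also favors. Itgam was at a distance of 2.13 and at rank 19.

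**Figure D4:**
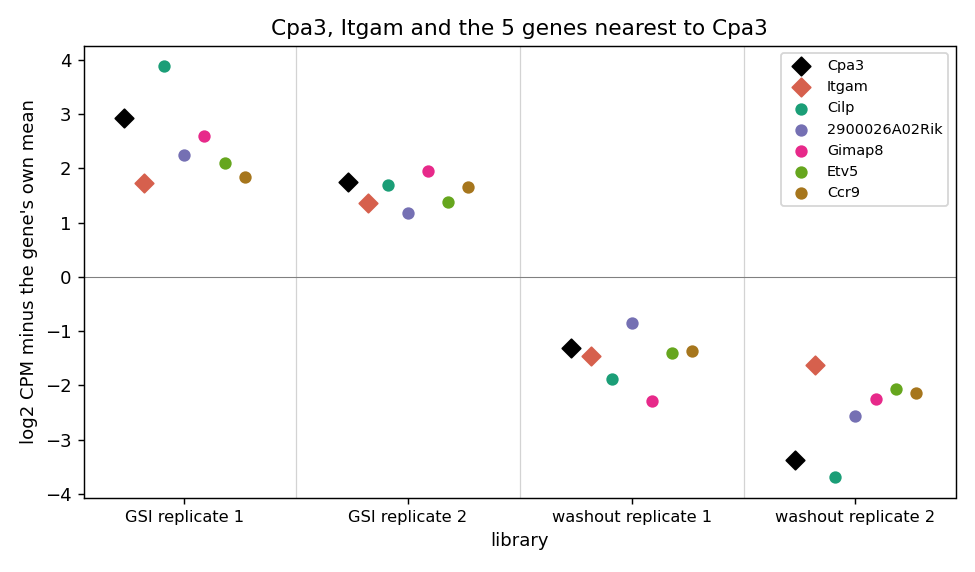
Log2 CPM minus each gene's own mean in the 4 libraries for Cpa3, Itgam (diamonds) and the 5 genes nearest to Cpa3 (circles), side by side within each library. All lie above their mean in GSI and below it in washout, and Cpa3 and Cilp spread more between replicates than Itgam does.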

How the data were processed

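RNA-Seq counts of 4 Beko libraries (GSI and washout, 2 each) were analyzed. Reads were trimmed by the authors and aligned to mm9 with HISAT2 2.2.1 (version per the submitters' processing notes) with a maximum intron of 3000 bases, and the deposited values are raw read counts per gene from summarizeOverlaps. Strand setting and overlap mode are not given in the sources used here. Washout was compared with GSI using edgeR 4.0.16 (R 4.3.3) with filterByExpr, TMM factors and its quasi-likelihood test, with no covariates and with Benjamini-Hochberg adjustment over the 12266 tested genes. SE was computed from the log2 fold change and the F statistic. On simulated data the test recovered 172 of 196 genes changed by 1.5 on the log2 scale, with 5 false calls among the 12148 genes fitted. The simulated libraries were drawn independently with the spread estimated from these data, so a link between same-numbered libraries was not covered. Positions and exon lengths come from GENCODE vM1 on mm9 (20641 symbols matched 1 gene), where Spi1 is listed under its older symbol. RefSeq promoters (GRCm38.p6) were available for 8 of the 10 genes.

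The 10 genes and the lists were chosen with earlier results of these data known. Named were the 10 genes, Csf2rb2, up to 3 largest rises and 3 largest falls past both thresholds in each list, and the 5 genes nearest to Cpa3. Itgb2, Cebpd, Cd63, Syk, Lyn, Fgr and the mast cell genes at 0 were named after their values were seen. A gene that this rule names is left out here. Alternatives were DESeq2 1.42.0, RLE or total-count scaling, 2 other filters, a replicate block, thinned counts, a GC and length correction, the adjusted p alone, glmTreat, a prior count of 2, and leaving out each library.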

Additional observations from a re-analysis of the deposited data

How the results depend on the processing

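Itgam was called lower in all 17 alternatives. Cpa3 was chosen for its fall in these libraries and is in each of the next counts by that choice. The number of the 10 genes lower past both thresholds was 2 as designed (Cpa3 and Itgam), beside 1437 of 12266 tested genes. Without a filter beyond 1 count it was 5 (Hdc, Mpo and Cebpb in addition), beside 1522 of 17049 genes. That fit had infinite prior degrees of freedom, and Hdc and Mpo had 0 counts in washout. The number was 3 (with Cebpb) under the replicate block (1576 of 12266 genes lower) and the block on thinned counts (1479 of 11856). It was also 3 (with Cebpb) under total-count scaling (1961 of 12266) and a filter of 10 counts in each library (1131 of 11293). It was 2 to 3 when a library was left out, with the remaining library of that condition assumed to vary like the others. None of the 10 was higher in any setting. Over all genes, 950 were higher and 1437 lower. Total-count scaling, which shifted the median log2 fold change by -0.20, gave 587 higher and 1961 lower, the adjusted p alone 3315 and 3120, and glmTreat 308 and 501. Leaving out 1 library gave 881 to 1064 higher and 1118 to 1375 lower. Among the lists, the lower transcription factors were 5 under total-count scaling and 6 by the adjusted p alone against 3, the lower mast cell genes 1 by glmTreat against 3, the lower T lineage genes 9 by the adjusted p alone against 4, and the lower erythroid genes 0 with the GC and length correction and 1 by DESeq2 against 3. The receptor counts, 1 in each direction, ranged from 0 to 2. The causes of these differences were not tested.

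The labels do not say that a replicate number marks a shared culture or day, and with 2 pairs the data cannot decide it. Deviations of same-numbered libraries correlated at 0.497. With the number as a block, 981 genes were higher and 1576 lower, and log2 fold changes were -4.43 for Cpa3, -3.11 for Itgam and -1.13 for Cebpb (adjusted p = 0.00419). In that fit the prior degrees of freedom were 23.1 against 4.25 without the block, so each gene's spread was drawn more from the trend. With the block and the GC and length correction, Cebpb was at -0.78, inside the fold threshold. The block also brought Cebpd past both thresholds as higher. Of the 10 genes, 7 were under the filter, and no difference could be tested for them as designed.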

Other observations

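Markers of other blood lineages mostly had few counts, but 10356 of all 24391 genes also had 3 or fewer in every library. Of 13 erythroid and megakaryocyte genes, 8 had 3 counts or fewer in every library and 5 were tested. Over all tested genes, 11.7% were lower and 7.74% were higher, shares to be read beside the falls in this section. Klf1 (log2 fold change -1.18, adjusted p = 0.0325), Itga2b (-1.37, adjusted p = 0.0465) and Gp1bb (-1.11, adjusted p = 0.0159) fell, with calls kept in 0, 1 and 2 of 4 fits that left out a library. Itga2b would not have passed the filter on low counts by its washout libraries alone, which favored a fall. Of 12 B lineage genes only Blnk was tested, and it fell (-1.499, adjusted p = 0.0169), a call kept in 3 of 4 such fits. Of 11 NK and dendritic cell genes only Prf1, which encodes perforin, was tested, and it fell (-2.93, adjusted p = 0.00227) with its call kept in 4 of 4.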
